A study of Mus musculus with 18 samples.

Results

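ADAM and ADAMTS genes encode zinc-dependent proteases that cut other proteins at the cell surface and in the matrix. Levels of 9 of them, Adam8, Adam9, Adam10, Adam12, Adam17, Adam19, Adamts1, Adamts4 and Adamts5, were followed in 9 of the 21937 rows of the expression table. The genes were chosen by family and by their measured levels at 0 h and 4 h, where Adam12 was much higher and Adamts1 much lower at the later time. The change between these times is therefore described without a test, for all 9 genes. NIH3T3 cells, an established line of mouse embryo fibroblasts, had been exposed for 2 h to 100 nM dexamethasone, a synthetic glucocorticoid that synchronizes the circadian clocks of a culture. The drug was then removed by a change to normal culture medium, which set 0 h, and RNA was sequenced every 4 h until 32 h. There were 9 times with 2 libraries each (replicate 1 and replicate 2), 18 libraries in all. All of them share the cell line, the pulse and the medium change, and none came from untreated cells, so every change is relative to another time of the same course. The labels do not say whether replicates 1 and 2 were separate cultures, so p-values measure only the spread between these libraries, which may be technical.

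ADAM proteins are anchored in the membrane and release the outer parts of other membrane proteins, among them growth factor precursors, cytokine receptors and Notch. ADAMTS proteins are secreted, carry thrombospondin type 1 repeats that hold them in the matrix, and include the enzymes that cleave the proteoglycans versican and aggrecan. Both are made as inactive precursors, and furin-like convertases remove the prodomain of many of them. Tissue inhibitors of metalloproteinases (TIMPs) also block many of them.

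The libraries held 25405004 to 38867189 reads in genes, at least 31878642 in replicate 1 and at most 32034822 in replicate 2. The 10 most abundant genes took 5.70% to 8.09% of a library. Levels are normalized reads, which the authors obtained by scaling the read count of a gene with 1 size factor for its library. All 10 fibroblast markers examined were present, with a summed level between 855201 and 1231470 normalized reads. Of the other cell types' markers, Cd3e, Kdr and Myod1 were at 0 in every library, and Epcam, Cdh1, Ptprc and Adipoq did not exceed 4.87. Others of the same lists were present. The highest level in a library was 1079 for Krt8, 80.4 for Krt18, 73.2 for Krt14 and 273 for Cd68. It was 710 for Tubb3, 69.0 for Cdh5 and 58.7 for Fabp4. The summed epithelial markers ranged from 177 to 1196, leukocyte from 174 to 302, endothelial from 37.4 to 101, adipocyte from 25.2 to 63.7 and neural from 247 to 717. The summed muscle markers ranged from 960 to 6881, nearly all of it Acta1, a sarcomeric actin. From 8 h to 32 h the mean sums went from 569.6 to 229.9 for epithelial, from 4273 to 1047 for muscle, from 640.5 to 258.8 for neural, from 93.0 to 52.1 for endothelial, from 228 to 279 for leukocyte and from 31.3 to 49.2 for adipocyte markers, and their part in the results below was not tested.

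Promoter windows from RefSeq (build GRCm38.p6, later than the mm9 build of the expression data) are shown for Adamts1 and Adam19, which moved in opposite directions from 8 h on. Each window runs from 250 bases before to 50 bases after a transcript start, and Adam19 has 3 such windows, of which the one nearest to the GENCODE M21 basic start is given. Motifs were searched on both strands and matches are in capitals. The first in Adamts1 is TGACG, the core of the cAMP response element. The other capitals in Adamts1 are the TATA box, spelled TATAAA. Those in Adam19 are an AP-1 site, for which the letters searched were TGANTCA. Adamts1 lies on the minus strand at chr16:85803064-85803363 and Adam19 on the plus strand at chr11:46055734-46056033.
Adamts1: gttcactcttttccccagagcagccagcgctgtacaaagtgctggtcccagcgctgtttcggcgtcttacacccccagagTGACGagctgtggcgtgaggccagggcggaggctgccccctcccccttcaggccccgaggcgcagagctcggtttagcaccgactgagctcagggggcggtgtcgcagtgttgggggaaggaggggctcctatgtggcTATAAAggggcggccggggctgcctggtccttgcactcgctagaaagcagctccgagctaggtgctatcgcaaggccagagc
Adam19: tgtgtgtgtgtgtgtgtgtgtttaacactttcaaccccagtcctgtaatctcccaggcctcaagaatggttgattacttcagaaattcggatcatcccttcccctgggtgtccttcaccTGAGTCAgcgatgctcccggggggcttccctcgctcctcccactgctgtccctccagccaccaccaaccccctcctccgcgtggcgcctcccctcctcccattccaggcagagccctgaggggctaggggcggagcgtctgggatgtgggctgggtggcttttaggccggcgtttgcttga

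In Adamts1 the TATA box began 32 bases and the TGACG core 170 bases before the start. In Adam19 the AP-1 site began 131 bases before it. The TGACG core was also in the Adam10 window. Of 32851 promoters of this length in the table, 13.6% held the TATA box, 20.8% the cAMP response element core and 7.81% the AP-1 site. The E-box CACGTG, the element bound by the clock activators, was in 7.15% of all promoters. Among the 7 windows of the 5 family members in the table it was in 1 of Adam10 and in another of the 3 Adam19 windows. The full cAMP response element TGACGTCA (1.79% of promoters) and the palindromic glucocorticoid response element (0.00913%) had no match in these windows, which says only that the letters are not there. The core is part of the full element. Adam9, Adam12, Adamts4 and Adamts5 were not matched in the promoter table.

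Adam12, also known as meltrin alpha, sheds EGF receptor ligands and cleaves IGF-binding proteins, and is a marker of activated mesenchymal cells. Its level was 6352 and 3751 normalized reads at 0 h in replicates 1 and 2, 15794 and 15427 at 4 h, 13988 and 13887 at 8 h, and 12763 and 11778 at 12 h. It was then 10616 and 10658 at 16 h, 9973 and 9165 at 20 h, 8199.6 and 7450.2 at 24 h, 6953 and 6891 at 28 h, and 6560.2 and 6626 at 32 h. Both libraries at each time from 8 h on were lower than both of the time before. In the order of the levels, 4 h stood first, followed by 8 h, 12 h, 16 h, 20 h, 24 h, 28 h, 32 h and 0 h, and in none of the 8 neighbouring pairs did the libraries overlap. The mean at 4 h was 15611 ± 260 (SD, n = 2) and that at 0 h 5051 ± 1839, a log2 difference of 1.68 ± 0.15 (SE) on the log2(value + 1) scale, which chose the gene and is not tested. At 32 h, 42.2% of the 4 h mean was left.

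Adamts1, a secreted protease that cleaves versican and aggrecan and binds VEGF, had the reverse course. Its level was 10041 and 15018 normalized reads at 0 h, 1950 and 2498 at 4 h, 2679 and 3470.2 at 8 h, and 2601 and 3940 at 12 h. It was then 3143 and 5059 at 16 h, 3677 and 5940.2 at 20 h, 4644 and 6344 at 24 h, 4542 and 7300.1 at 28 h, and 4661 and 7443 at 32 h. The 0 h libraries stood above all others and the 4 h libraries below all others, while from 8 h to 32 h the libraries of every neighbouring pair in the order of levels overlapped. The mean went from 12529 ± 3519 (SD, n = 2) at 0 h to 2224 ± 388 at 4 h, a log2 difference of -2.48 ± 0.33 (SE), again not tested. By 32 h the mean, 6052 ± 1967, had reached 48.3% of that at 0 h.

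**Figure D1:**
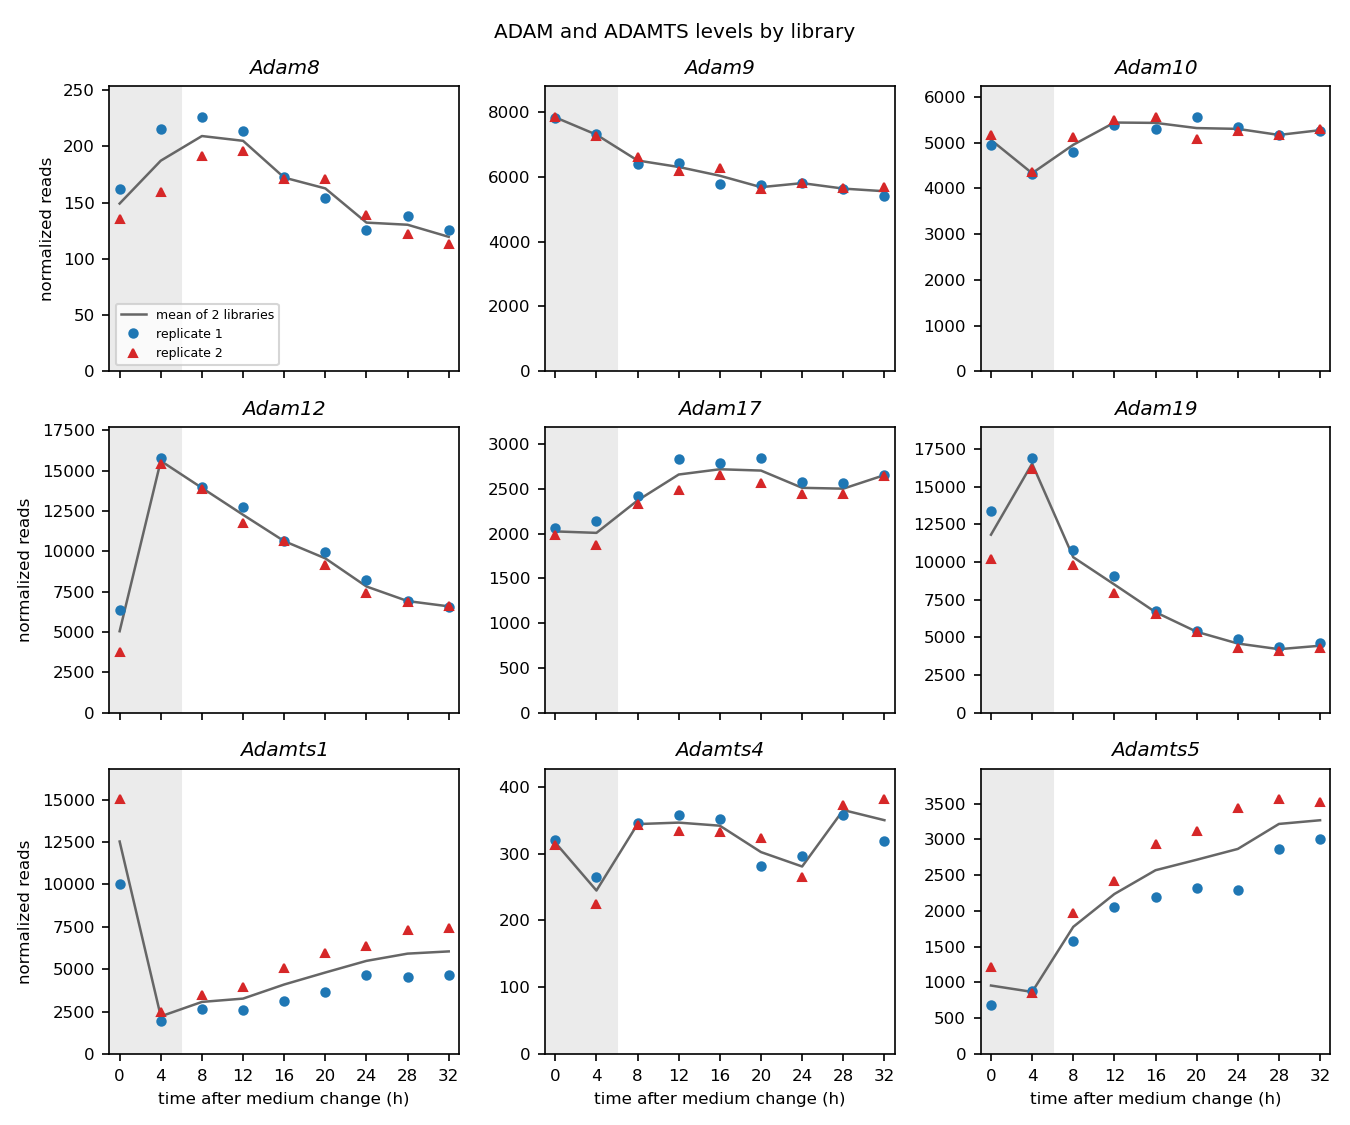
Normalized reads (linear axis from 0) against time after the medium change (h), 1 panel per gene, with circles for replicate 1, triangles for replicate 2 and a line through the means. The grey band covers 0 h and 4 h, the times used to choose the genes. Adam12 is at 15794 and 15427 at 4 h and declines to 6560.2 and 6626, while Adamts1 is at 10041 and 15018 at 0 h and at 1950 and 2498 at 4 h.

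The other 7 genes differed less between 0 h and 4 h. Adam19, or meltrin beta, was at 13403 and 10214 normalized reads at 0 h and at 16900 and 16146 at 4 h (log2 difference 0.50 ± 0.11). Adamts4, an aggrecanase, went from 319.7 and 313 to 266 and 224 (-0.37 ± 0.11), and Adam10, the sheddase of Notch, from 4955 and 5167 to 4307 and 4358 (-0.22 ± 0.05). Adam9, or meltrin gamma, went from 7804 and 7852 to 7327 and 7261 (-0.10 ± 0.05). The libraries of both times overlapped for Adam8, a protease known from leukocytes and tumours (0.32 ± 0.15), for Adam17, the TNF-converting enzyme (-0.01 ± 0.08), and for Adamts5, the second major aggrecanase (-0.08 ± 0.25). The sign for Adam17 was positive with equal totals and with quantile normalization, and that for Adamts5 was positive without 0 h replicate 2 (0.33). Of the 9 genes, 2 had both 4 h libraries above both 0 h libraries and 4 had both below. Among all 12393 genes tested the shares were 29.1% above and 29.1% below, and because this contrast chose the genes nothing is read from the counts.

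From 8 h to 32 h Adam8, Adam9, Adam12 and Adam19 fell and Adamts1 and Adamts5 rose. Adam10, Adam17 and Adamts4 were not called, so neither family moved as a whole. The 9 genes were chosen by levels at 0 h and 4 h, with earlier results of these data known. Among all tested genes, 1123 had an adjusted p under 0.05 for both the early step and this later interval. Of these, 83.1% had opposite signs, so a fall of Adam12 and a rise of Adamts1 were the common direction after their early steps. How much of these changes follows from the choice was not tested. Adam19 fell by 1.21 ± 0.11 on the log2 scale (SE, adjusted p = 6.27e-06), a fold of 2.32, and Adam12 by 1.08 ± 0.15 (adjusted p = 0.000259), a fold of 2.11. Adam8 fell by 0.80 ± 0.15 (adjusted p = 0.00181) and Adam9 by 0.23 ± 0.05 (adjusted p = 0.00454). Adamts1 rose by 0.95 ± 0.33 (adjusted p = 0.0458) and Adamts5 by 0.88 ± 0.25 (adjusted p = 0.0173). These p-values, like all others here unless another tool is named, are from limma with Benjamini-Hochberg adjustment over 12393 genes. In bulk RNA, fewer cells with a transcript and less of it per cell cannot be told apart.

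Both 32 h libraries were above both 8 h libraries in 4 of the 9 genes (32.6% of all genes) and below them in 4 (32.7%), with Adamts4 overlapping. Of the 9 genes, 6 were called at 32 h against 8 h, 4 lower and 2 higher, where 27.6% of all tested genes were called, 14.1% lower and 13.5% higher. The median log2 change was 0.02 over the 9 genes and 0.00038 over all genes. With the libraries rescaled to equal totals, 68.0% of the genes called were higher, against 48.8% with the deposited scaling, and the directions of the 6 called genes were the same under both. Adam10 (0.09 ± 0.05, adjusted p = 0.235), Adam17 (0.16 ± 0.08, adjusted p = 0.137) and Adamts4 (0.02 ± 0.11, adjusted p = 0.923) did not pass. Adam10 passed with equal totals and with quantile normalization (adjusted p = 0.036 and 0.0482). Adam17 passed with equal totals and with the replicate number as a block (adjusted p = 0.0461 and 0.017). In the blocked fit 8 h and 32 h differed in 42.3% of all genes.

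Adamts1 and Adamts5 were higher at 32 h than at 8 h within each replicate. With the replicate number as a block their adjusted p was 4.62e-09 for Adamts1 and 5.71e-06 for Adamts5. Without the block their calls depended on single libraries. Adamts1 lost its call when 8 h replicate 1 (adjusted p = 0.234) or its partner, 8 h replicate 2 (0.0615), was left out, and likewise when 32 h replicate 2 (0.337) or either 4 h library (both 0.0508, with the same log2 change of 0.95) was. It was not called by DESeq2 on recovered reads (0.053), with no filter or with no variance trend either, and over all alternatives the adjusted p ran from 4.62e-09 to 0.337. Adamts5 lost its call when 8 h replicate 1 (0.133) or 32 h replicate 2 (0.126) was left out, with a range from 5.71e-06 to 0.133. The calls of Adam8, Adam9, Adam12 and Adam19 held in all 28 alternatives.

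**Figure D2:**
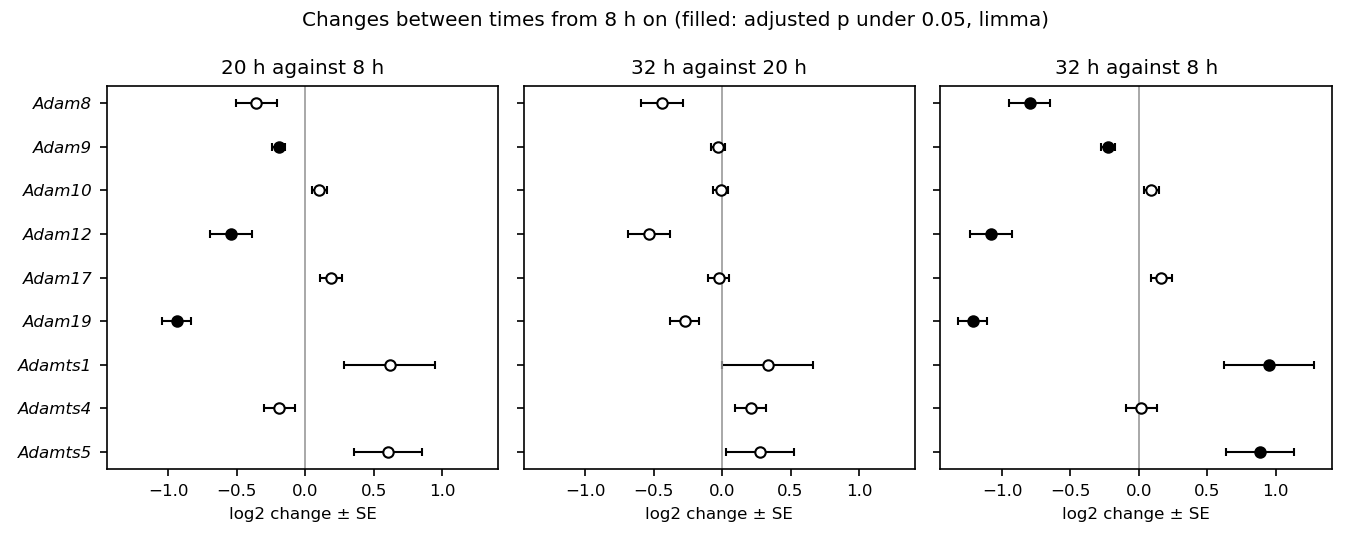
Log2 change (horizontal axis, bars are SE) of each gene between pairs of times from 8 h on, with filled circles for an adjusted p under 0.05 by limma. At 32 h against 8 h, Adam8, Adam9, Adam12 and Adam19 lie on the lower side and Adamts1 and Adamts5 on the higher side, and at 32 h against 20 h no gene is filled.

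Adam19 had reached 45.5% of its 0 h mean by 20 h and 37.6% by 32 h. Its level was 10809 and 9818 normalized reads at 8 h, 9044 and 7962 at 12 h, 6763 and 6574 at 16 h, and 5399 and 5339 at 20 h. It was 4910 and 4270 at 24 h, 4335 and 4095 at 28 h, and 4604 and 4283 at 32 h, so the last 3 times overlapped with one another but not with 20 h. From 8 h to 20 h Adam19 fell by 0.94 ± 0.11 (adjusted p = 7.91e-05), and the change from 20 h to 32 h was -0.27 ± 0.11 (adjusted p = 0.261, or 0.00948 with a replicate block). Adam12 had nearly equal changes in both intervals, -0.54 ± 0.15 from 8 h to 20 h (adjusted p = 0.0278) and -0.54 ± 0.15 from 20 h to 32 h (adjusted p = 0.142, or 0.00553 with a replicate block). The first of these lost its call when any 1 of the 4 libraries compared was left out (adjusted p from 0.0601 to 0.178) and with no variance trend, and the second was called without either library of 0 h (0.00283 and 0.00282) and by DESeq2 (0.0297). The difference between the intervals was not tested.

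Adam9, expressed in most cell types and able to cleave several surface proteins, fell by 0.19 ± 0.05 from 8 h to 20 h (adjusted p = 0.0174). Its mean went from 6499 ± 135 (SD, n = 2) at 8 h to 5677 ± 73.1 at 20 h and 5551 ± 193 at 32 h. That call was lost with equal totals (adjusted p = 0.0613), when either 8 h library was left out (0.0562 without the first and 0.0927 without the second), and when 20 h replicate 2 was (0.112). Adam8, the least abundant of the 9 genes per kilobase, stood at 227 and 192 normalized reads at 8 h, 154 and 171 at 20 h, and 126 and 113 at 32 h. Its changes in these intervals, -0.36 ± 0.15 and -0.44 ± 0.15, passed only with a replicate block (adjusted p = 0.0438 and 0.0388, against 0.123 and 0.206).

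Adamts5 was at 692 and 1223 normalized reads at 0 h and at 883 and 855 at 4 h. It was at 1578 and 1977 at 8 h, 2048 and 2425 at 12 h, 2196 and 2941 at 16 h, and 2314 and 3116 at 20 h. Levels of 2296 and 3435 at 24 h, 2871 and 3559 at 28 h, and 3011 and 3522 at 32 h followed. Both libraries of 8 h were above those of 0 h and 4 h, both of 12 h were above those of 8 h, and from 12 h on neighbours in the order overlapped. From 8 h to 20 h the changes of Adamts5 (0.60 ± 0.25, adjusted p = 0.113) and Adamts1 (0.62 ± 0.33, adjusted p = 0.227) did not pass, and with a replicate block they did (adjusted p = 0.000575 and 2.90e-06). From 20 h to 32 h Adamts1 (0.33 ± 0.33, adjusted p = 0.702) passed with the block (0.00641), and Adamts5 (0.28 ± 0.25, adjusted p = 0.663) passed in none of the alternatives.

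At 20 h against 8 h, 3 of the 9 genes were called, 0 higher and 3 lower, against 16.9% of all genes, 8.52% higher and 8.42% lower. With the block 7 were called, against 32.7%, among them Adam17 (0.19 ± 0.08 and adjusted p = 0.114 without the block, 0.00918 with it). The 3 became 1, Adam19, without either library of 8 h or without 20 h replicate 2. At 32 h against 20 h, 0 of the 9 were called by limma, 0 by edgeR and 1, Adam12, by DESeq2, against 0.161% of all genes by limma, 0.0726% higher and 0.0888% lower. With the block 4 were called, against 10.5%. Unadjusted p-values under 0.05 by limma were found for Adam8, Adam12 and Adam19. How many of all genes had such a p was not counted, so nothing is read from these names. In the F test over the 7 times from 8 h to 32 h, 4 of the 9 differed, against 19.2% of all genes: Adam8 (adjusted p = 0.00549), Adam9 (0.0213), Adam12 (0.000969) and Adam19 (1.02e-05). Adam9 lost this call when either 8 h library (0.0637 and 0.0867) or 32 h replicate 1 (0.0573) was left out, and with equal totals (0.0993) or quantile normalization (0.13). With the block 7 differed, against 41.2%, with Adam17 (0.0293), Adamts1 (2.34e-09) and Adamts5 (4.52e-05) added.

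The replicates stood apart for both ADAMTS genes that rose. Adamts1 was higher in replicate 2 at all 9 times, by a median of 0.60 log2 (range 0.36 to 0.69), and Adamts5 at 8 of 9, by a median of 0.33 (range -0.05 to 0.82). Over all tested genes the median of this difference was 0.0016, and 90% of genes lay between -0.28 and 0.24. RefSeq places Adamts1 and Adamts5 next to each other on chromosome 16, with no protein-coding gene between them. Adam17 and Adam19 were lower in replicate 2 at all 9 times, by medians of 0.07 and 0.10 log2. At 0 h Adam12 differed between the replicates by 0.76 log2, and at later times by at most 0.14. What sets the replicates apart was not tested.

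**Figure D3:**
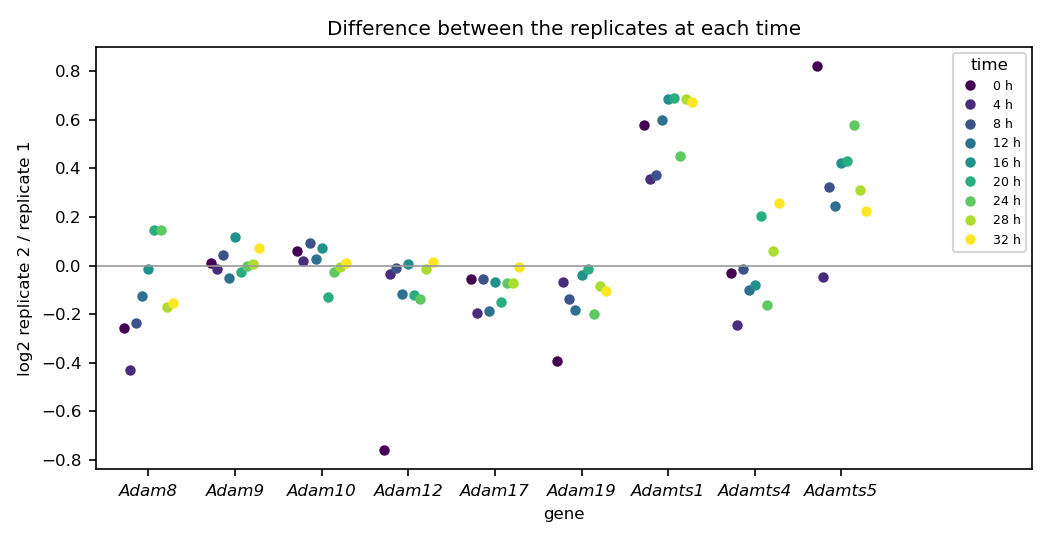
Log2 ratio of replicate 2 to replicate 1 (vertical axis) for each gene, 1 point per time coloured from 0 h to 32 h. The 9 points of Adamts1 lie between 0.36 and 0.69, while those of Adam9 lie between -0.05 and 0.12 and the lowest point of Adam12, at 0 h, is at -0.76.

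A 24 h cycle was sought with a sinusoid of that period over the times from 8 h to 32 h. None of the 9 genes passed by limma, where 1.15% of all genes were called. By edgeR 0 of the 9 were called and by DESeq2 0. Adam8, Adam12, Adam19 and Adamts4 had an unadjusted p under 0.05 by limma. The share of all genes under that unadjusted p was not counted, so nothing is read from this list. The adjusted p was lowest for Adam19 (0.144, fitted peak-to-trough fold 1.94), then 0.186 for Adam12, 0.192 for Adam8 and 0.197 for Adamts4. With the replicate block 0 of the 9 passed as well, against 3.07% of all genes. Adam19 passed once a straight drift over time was fitted together with the sinusoid (adjusted p = 0.00549), where 5.27% of all genes were called. The 24 h spanned hold a single cycle, so a steady drift can be fitted in part as a cycle. Adamts4 itself ranged from 281 ± 22.6 at 24 h to 365 ± 10.6 normalized reads at 28 h.

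Adam10 and Adam17, the most broadly expressed sheddases of the family, varied least together with Adam9. From the lowest to the highest mean Adam10 spanned 1.26-fold (4333 at 4 h, 5441 at 12 h), Adam17 1.35-fold (2009 at 4 h, 2720 at 16 h) and Adam9 1.41-fold (7828 at 0 h, 5551 at 32 h). The spans were 1.49 for Adamts4, 1.75 for Adam8, 3.09 for Adam12, 3.76 for Adamts5, 3.92 for Adam19 and 5.63 for Adamts1. Those of Adam12 and Adamts1 are the step between 0 h and 4 h that chose the genes. From 8 h to 32 h the spans were 2.45 for Adam19, 2.11 for Adam12, 1.97 for Adamts1 and 1.84 for Adamts5. They were then 1.75 for Adam8, 1.30 for Adamts4, 1.17 for Adam9, 1.15 for Adam17 and 1.10 for Adam10. Per kilobase of exon in GENCODE M21, a later annotation than that of the table, mean levels over the course were highest for Adam9 (1529 normalized reads per kb). Adam19 (1131), Adam10 (1047), Adamts1 (995) and Adam12 (929) came next, followed by Adam17 (344), Adamts5 (211), Adamts4 (66.8) and Adam8 (35.2). Exons of Adam17 overlap Iah1 in that annotation. The strand setting of the counting is not given in the sources used here, so reads of this pair may not be told apart.

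Over all 18 libraries, the genes whose log2 levels followed Adam12 most closely were Rnd1 (Pearson r = 0.953), Efnb2, which encodes ephrin B2 (0.939), Nsf, an ATPase of membrane fusion (0.931), and Pag1, a membrane adaptor (0.923). The mean level of Rnd1 went from 969 at 0 h up to 2109 at 4 h and back to 1112 at 32 h. The genes most like Adamts1 were Etl4 (0.954), Slit2, a secreted guidance ligand (0.944), Lmo7 (0.944) and Ski, a corepressor of SMAD proteins (0.939). The mean level of Slit2 went from 6835 at 0 h down to 3433 at 4 h and back to 5358 at 32 h. These correlations describe libraries that share a time course, and no p is given. They include the 0 h and 4 h libraries used to choose the genes. The steps of Rnd1 and Slit2 between those times therefore follow from the way they were picked.

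The counts in the following lists stand beside 21.5% of all genes called at 4 h against 0 h and 27.6% called at 32 h against 8 h. The table lists 27 other ADAM genes, of which 8 were abundant enough to test and 9 had no read in any library. Of 22 other ADAMTS and ADAMTS-like genes 10 could be tested. Adamts14, a procollagen N-proteinase, rose from 1563 ± 152 to 2515 ± 122 between 0 h and 4 h (adjusted p = 0.00385, or 0.0558 without 0 h replicate 2) and fell from 2477 ± 461 to 1018 ± 83.4 between 8 h and 32 h (3.74e-05). Adamts6 rose from 1172 ± 135 to 1973 ± 43.2 (0.000121) and fell from 804 ± 41.0 to 577 ± 6.81 (0.00277). Among the other ADAMTS genes 2 rose and 1 fell at 4 h, and 1 rose and 4 fell at 32 h against 8 h. Without 0 h replicate 2 the counts at 4 h were 1 and 0. Among the other ADAM genes 1 rose and 1 fell at 4 h, and 0 rose and 1, Adam1a, fell at 32 h against 8 h (adjusted p = 0.00175). The calls at 4 h, Adam1a higher and Adam15 lower, were both lost without either 0 h library. The log2 change was then 0.44 and 0.65 for Adam1a and -0.26 and -0.22 for Adam15. Adam1a also lost its call without 4 h replicate 1 (log2 change 0.34) and with no filter. Adam15 lost its call without 4 h replicate 2 (-0.16), with equal totals (adjusted p = 0.0603) and with quantile normalization (0.0808).

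Partners of ADAM10 and ADAM17 are the iRhoms, which carry ADAM17 to the surface, and the TspanC8 tetraspanins, which do so for ADAM10. Of 8 tested, 3 fell and 0 rose at 4 h, and 3 rose and 0 fell at 32 h against 8 h. The 3 that rose, Rhbdf2, Tspan5 and Tspan33, were 0 without 8 h replicate 2 and 0 without 32 h replicate 1, and 1 without 8 h replicate 1. The 3 that fell, Rhbdf1, Tspan5 and Tspan33, were 1 without 0 h replicate 2 and 2 without any other library of 0 h or 4 h. Tspan33 fell 2.78-fold from 36.8 ± 5.44 to 12.6 ± 1.41 between 0 h and 4 h (adjusted p = 0.00218). Of 4 inhibitors tested, 1 rose and 1 fell at 4 h, and 0 rose and 2 fell at 32 h against 8 h. Reck fell 1.64-fold at 4 h, from 377 ± 60.8 to 232 ± 59.6 (adjusted p = 0.0183). It was not called without 0 h replicate 2 (log2 change -0.55) or without 4 h replicate 1 (-0.45). Timp1 rose 1.62-fold at 4 h (adjusted p = 0.00161) and fell from 4114 ± 18.4 to 1370 ± 39.1 between 8 h and 32 h (3.13e-06). Timp3, the TIMP that blocks ADAM17 and the aggrecanases, fell 1.34-fold between 8 h and 32 h (0.0108, or 0.0958 without 8 h replicate 2 and 0.0737 without 32 h replicate 1). Of 2 convertases tested, Furin fell 1.32-fold at 4 h (0.0153). That call was lost when 0 h replicate 1 (0.0693), 0 h replicate 2 (0.0569) or 4 h replicate 2 (0.116) was left out.

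Of 22 tested substrates shed by ADAM10 and ADAM17, 6 fell and 2 rose at 4 h, and 8 fell and 2 rose at 32 h against 8 h. With a library left out, 5 to 7 fell and 1 to 3 rose at 4 h, and 4 to 8 fell and 1 to 4 rose at 32 h, the fewest falls without 32 h replicate 2. Hbegf, the heparin-binding EGF receptor ligand that ADAM12 and ADAM17 release, fell from 8909 ± 274 to 4118 ± 423 at 4 h (adjusted p = 0.000259) and from 2003 ± 311 to 825 ± 140 between 8 h and 32 h (7.58e-05). Il6ra, the IL-6 receptor, fell 2.45-fold and Sdc4, a heparan sulfate proteoglycan, 1.85-fold at 4 h (8.16e-06 and 0.00017). Btc, which encodes betacellulin, rose 2.35-fold (0.000576). Jag1, a Notch ligand, fell 1.68-fold from 8 h to 32 h (3.53e-05). Of 11 tested matrix substrates of ADAMTS proteases and hyaluronan genes, 3 fell and 2 rose at 4 h, and 4 fell and 1 rose at 32 h against 8 h. The 3 that fell at 4 h, Dcn, Col1a2 and Col3a1, were 0 without 0 h replicate 2 and 1 without 4 h replicate 1. The 4 that fell at 32 h were 2 without 8 h replicate 1 and 2 without 32 h replicate 2. With quantile normalization 3 fell and 3 rose at 32 h against 8 h. The one that rose with the deposited scaling was Vcan, which encodes versican, the proteoglycan cut by Adamts1, Adamts4 and Adamts5. It went from 40017 ± 1580 to 61980 ± 7295 normalized reads (1.54-fold, adjusted p = 0.000896). Fbn1, fibrillin 1, rose 1.55-fold at 4 h and fell 1.84-fold from 8 h to 32 h (1.83e-05 and 1.90e-06). Of 9 tested substrates and adaptors of ADAM12, 2 fell and 0 rose at 4 h. At 32 h against 8 h, 5 fell and 1 rose (3 and 1 with equal totals, 4 and 1 with quantile normalization). The count of falls was 3 without 8 h replicate 1 and 3 without 32 h replicate 1, and the 1 that rose, Sh3pxd2b, was not called without 32 h replicate 2 (adjusted p = 0.0581). Those that fell include Itgb1, the integrin beta 1 subunit (1.70-fold lower, 1.90e-06), and Actn1, alpha-actinin 1, which binds the ADAM12 tail (1.76-fold lower, 1.63e-05).

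Counted once each, 73 related genes were tested. At 4 h against 0 h, 8 rose and 17 fell, with a median log2 change of -0.14 beside -0.0015 over all genes and 21.5% of all genes called. With equal totals, 61.4% of all genes called were higher, against 51.1% with the deposited scaling. At 32 h against 8 h, 8 rose and 23 fell (median -0.11), where 27.6% of all genes were called, 13.5% higher and 14.1% lower. The 25 calls at 4 h were 12 without 0 h replicate 2 and 38 with a replicate block (37.6% of all genes). The 31 calls at 32 h were 20 without 32 h replicate 2 and 46 with the block (42.3% of all genes). The 2 contrasts share no library, and 15 genes were called in both, 12 of them with opposite signs (80.0%), where the share over all genes called in both was 83.1% of 1123.

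**Figure D4:**
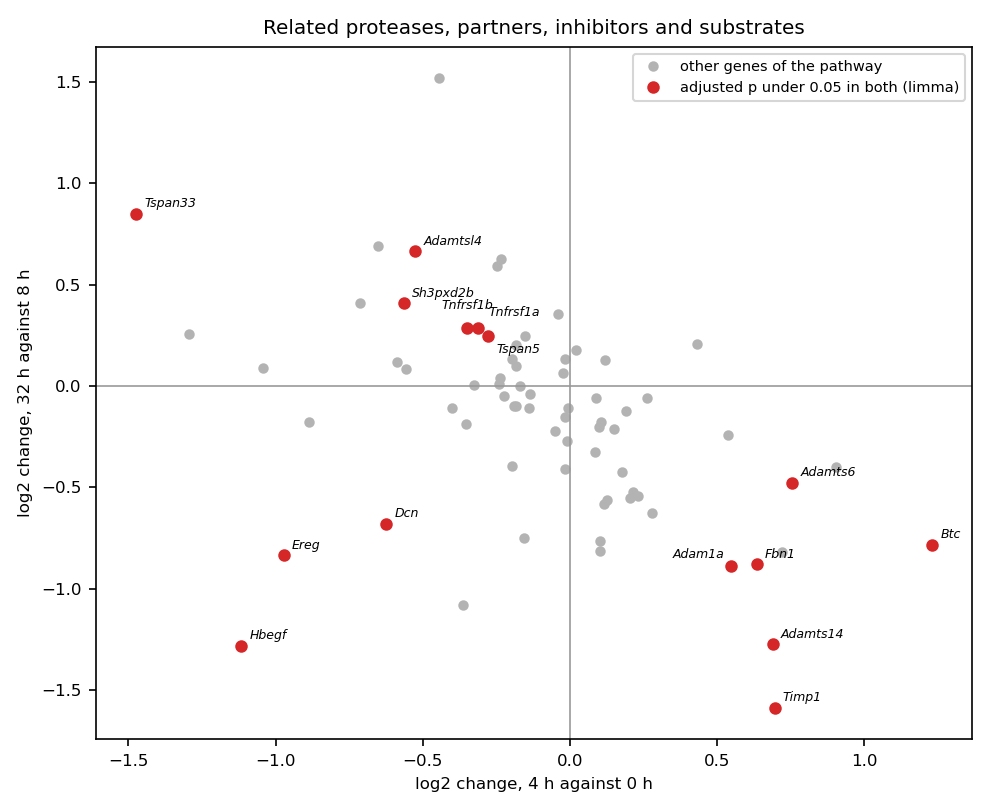
Log2 change at 32 h against 8 h (vertical axis) against that at 4 h against 0 h (horizontal axis) for the 73 related genes tested, 1 point per gene, with named red points for the 15 called in both. Of these, 12 lie in the quadrants of opposite sign, such as Timp1 and Adamts14, and Hbegf, Ereg and Dcn are lower in both.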

How the data were processed

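Total RNA of 18 libraries was sequenced with single-end reads, per the labels. The deposited table holds 1 signal per gene and library, read counts divided by 1 factor per library by the authors and rounded to 2 decimals. The submitters' processing notes name TopHat, HTSeq, DESeq and mm9, without versions or roles. The annotation is not given in the sources used here. Dividing by each library's step gave whole reads (largest distance 0.00611 reads, tolerance 0.02).

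limma 3.58.1 (R 4.3.3) with a variance trend was run on log2(value + 1) of the 12393 genes whose mean was at least 10. The contrasts and the F test used all 18 libraries with 1 mean per time, and the rhythm fit the libraries from 8 h to 32 h. Tests were two-sided, with a Benjamini-Hochberg threshold of 0.05. Low values have understated folds on this scale. The members and lists were chosen with earlier results of these data known. Named genes were the 9 members, the 4 genes with a mean of at least 50 most correlated with Adam12 and Adamts1, and called list genes from the up to 4 per direction with the smallest p.

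The choices varied were the pseudocount, the filter, the scaling (equal totals, quantile normalization), the variance trend, the tool (edgeR 4.0.16 and DESeq2 1.42.0 on recovered reads), a replicate block, and each library left out, where the remaining single library of a time takes its spread from the other times. The replicate numbers pair the libraries: deviations of same-numbered libraries from the time mean correlated above 0.1 in all 36 pairs of times (0.230 to 0.502). The labels do not say where the pairing comes from. The limma fit without a block was run on simulated counts drawn independently for each library. The simulation held no replicate effect, so it cannot show how that fit does on paired libraries such as these. Figures used Python 3.11.15 and matplotlib 3.10.9.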

Additional observations from a re-analysis of the deposited data

How the results depend on the processing

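Of 1278 recomputed calls of the 9 genes from 8 h on, 1235 stayed on the same side of the threshold in the same direction, 24 were lost, 19 were gained and 0 reversed. With a replicate block, genes called were 5100 over 8 h to 32 h (2377 without it), 4047 at 20 h against 8 h (2100), 1298 at 32 h against 20 h (20), 5241 at 32 h against 8 h (3422), 4662 for 0 h to 4 h (2664) and 381 in the rhythm (142). Members called with the block were 7 over 8 h to 32 h, 7 for 8 h to 20 h and 4 for 20 h to 32 h, and related genes 38 at 4 h. The block changed no other member's call than those given above. At 32 h against 20 h, 13 genes were called with no filter, 11 without a trend and 225 by DESeq2, with 1 member. The rhythm gave 779 genes by DESeq2, 653 with a linear term (1 member) and 46 with 0 h and 4 h included. Leaving out a library gave 1398 to 2374 genes over 8 h to 32 h, 751 to 2152 at 20 h against 8 h, 2 to 39 at 32 h against 20 h, 1554 to 3508 at 32 h against 8 h, 972 to 2720 for 0 h to 4 h and 27 to 273 in the rhythm. Members called then ran from 3 to 4, 1 to 3, 0 to 1, 4 to 6 and, in the rhythm, 0 to 0. Related genes called ran from 12 to 27 at 4 h and from 20 to 33 at 32 h against 8 h. The log2 difference of Adam17 between 0 h and 4 h, -0.01, was 0.0197 after scaling to equal totals and 0.0145 after quantile normalization, and with single libraries left out it ran from -0.11 to 0.0833. That of Adamts5, -0.08, then ran from -0.49 to 0.33. The causes of these changes were not tested.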
